A study of Chlorocebus sabaeus with 3 samples.

Results

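RNA from the amniotic fluid of a stillborn vervet monkey pregnancy was set against RNA from the fluid of a spontaneously aborted one, gene by gene. A gene was taken in when its level reached an RPKM (read number over gene length and library depth) of at least 1 in either of the 2 libraries, whatever the difference between them. Of the 33994 genes listed in each file, 10773 met this rule, 9945 of them by their level in the stillborn and 10156 by their level in the spontaneous abortion library. In both libraries 9328 genes reached the minimum, while 617 did so in the stillborn library only and 828 in the spontaneous abortion library only.

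The study sequenced cell-free RNA of amniotic fluid supernatant from 3 pregnancies of Chlorocebus sabaeus, with 1 library per pregnancy. The stillborn pregnancy carried the gender label M, the spontaneous abortion the gender label NA and the pregnancy labelled alive, whose values stand beside the pair, the gender label F. The sources used here give no strain, treatment, maternal age, gestational age or time between loss and sampling, so the outcome of a pregnancy cannot be told apart from the pregnancy itself. With 1 library a side there was no replicate check and no test. All differences below compare 2 libraries, and their intervals cover counting error only.

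Amniotic fluid bathes the skin, mouth, airways, gut and urinary tract of the fetus, and RNA of the cells shed from these surfaces and from the amnion reaches the cell-free fraction. Stratified squamous epithelium renews itself from basal cells that divide and carry keratins 5 and 14 or 15, and its upper layers stop dividing and build a cornified envelope of small proline-rich proteins, filaggrins and their crosslinked partners. Macrophages and neutrophils can also enter the fluid, from the fetus or the mother, when there is debris to clear or an inflamed membrane. In supernatant RNA, fewer cells of a type and less RNA per cell cannot be told apart.

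The totals behind the deposited values, solved from their whole-number steps, were 17749954 stillborn, 29926352 spontaneous abortion and 20220899 alive library reads. Y-linked transcripts bore on the gender labels. DDX3Y, an RNA helicase of the Y chromosome, was at RPKM 9.38 (stillborn), 18.8 (spontaneous abortion) and 0.178 (alive), and the Y-linked zinc finger gene ZFY was at 3.36, 4.04 and 0.512. Both genes were far lower in the alive library than in either loss, the loss with no gender given included. From here on, 3 values in a row are RPKM in the stillborn, spontaneous abortion and alive library, in that order.

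Most of the RNA was at a similar level in both losses. After scaling by the trimmed mean of M values (TMM), 89.5% of the genes lay within 2-fold, and the median log2 difference, stillborn minus spontaneous abortion on log2(RPKM + 0.1), was -0.02, with 5218 genes above 0 and 5555 below. Scaled to total reads instead, this median was -0.14, a shift that bears on every small difference below. A gene counted as apart if its scaled reads differed by at least 4-fold, the exact Clopper-Pearson 95% interval of that ratio excluded 1 and the higher library had at least 30 reads. By this call 211 genes were higher in the stillborn library, 1.96% of the genes compared, and 67 were lower, 0.622%, together 278 or 2.58%. The tails were therefore unequal, with 75.9% of the genes apart on the stillborn side. At 2-fold in place of 4-fold the counts were 616 (5.72%) and 480 (4.46%), and the imbalance shrank to 56.2%.

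Genes apart came mostly from low levels. Of 7042 genes whose higher RPKM lay between 1 and 10, 177 were apart as higher and 62 as lower. Between 10 and 100 there were 32 and 5 among 3247 genes, between 100 and 1000 there were 2 and 0 among 418, and none of the 66 genes above 1000 was apart. The 2 above 100 were the squamous gene SPRR3 and the lysosomal protease gene CTSB. Because the rule took a gene in by either library, a gene near RPKM 1 in 1 library could be far lower in the other. Among genes with RPKM of at least 1 in both libraries, 35 were apart as higher and 9 as lower. At the edge of the rule, C3AR1, a receptor of the complement fragment C3a, was just inside at 1.0003, 0.0742 and 0, and CCDC66, a coiled-coil protein gene, was just outside at 0.9999, 0.957 and 0.660.

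**Figure D1:**
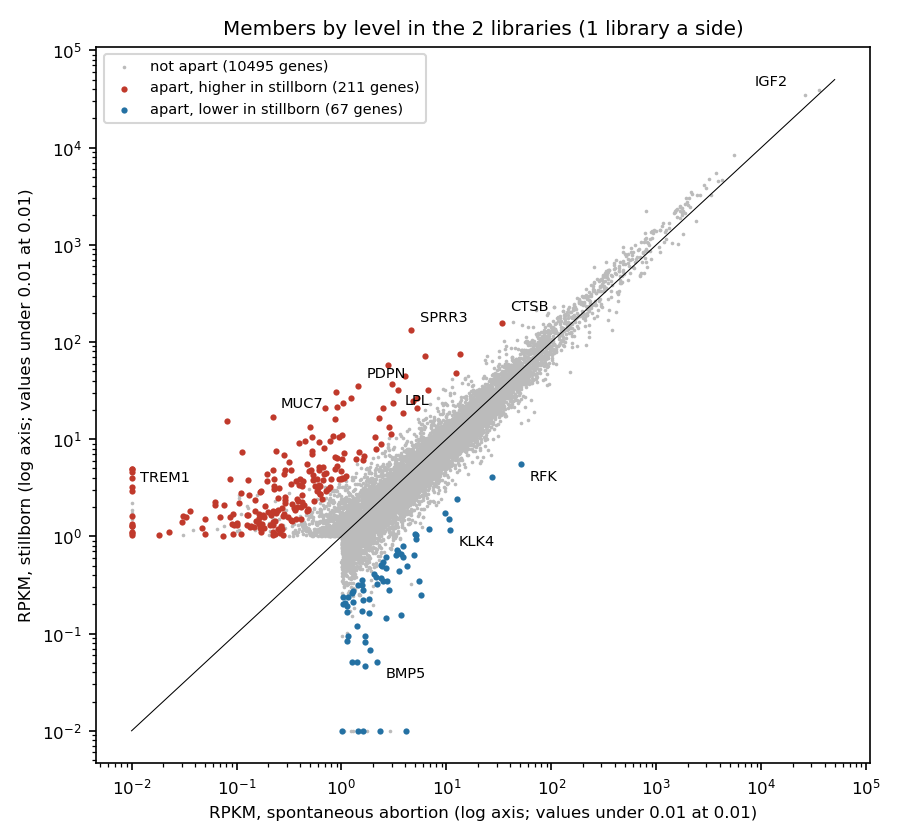
RPKM of each of the 10773 genes in the spontaneous abortion (x axis) and stillborn library (y axis), both log axes, with values under 0.01 drawn at 0.01 and a line of equal RPKM. The 211 genes apart as higher (red) and the 67 apart as lower in the stillborn library (blue) lie mostly at low levels, while SPRR3 and CTSB stand out above RPKM 100.

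Of the genes with a symbol, those farthest apart on the stillborn side by the interval bound began with TREM1, MUC7 and MUCL1. MUC7, a secreted mucin of saliva, was at 17.0, 0.221 and 0.109, which made it 83.8-fold higher (95% interval 47.6 to 163) in the stillborn than in the spontaneous abortion library. TREM1, which amplifies inflammatory signals in neutrophils and monocytes, was at 2.96, 0 and 0.155, with 134 stillborn reads and 0 in the spontaneous abortion library, at least 65.7-fold higher by the bound of the exact interval and 81.9-fold when 3 reads are taken for 0. Another small mucin-like secretory gene, MUCL1, had reads in the stillborn library only, at 3.20, 0 and 0. In all 3 genes the stillborn library alone was high. In all, 13 genes apart as higher had 0 reads in the spontaneous abortion library. PDPN, the membrane mucin podoplanin of basal keratinocytes, lymphatic endothelium and some macrophages, stood out by its depth, at 34.9, 1.44 and 0.364 and with 3622 against 252 reads, 26.3-fold higher (23.2 to 30.05).

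**Figure D2:**
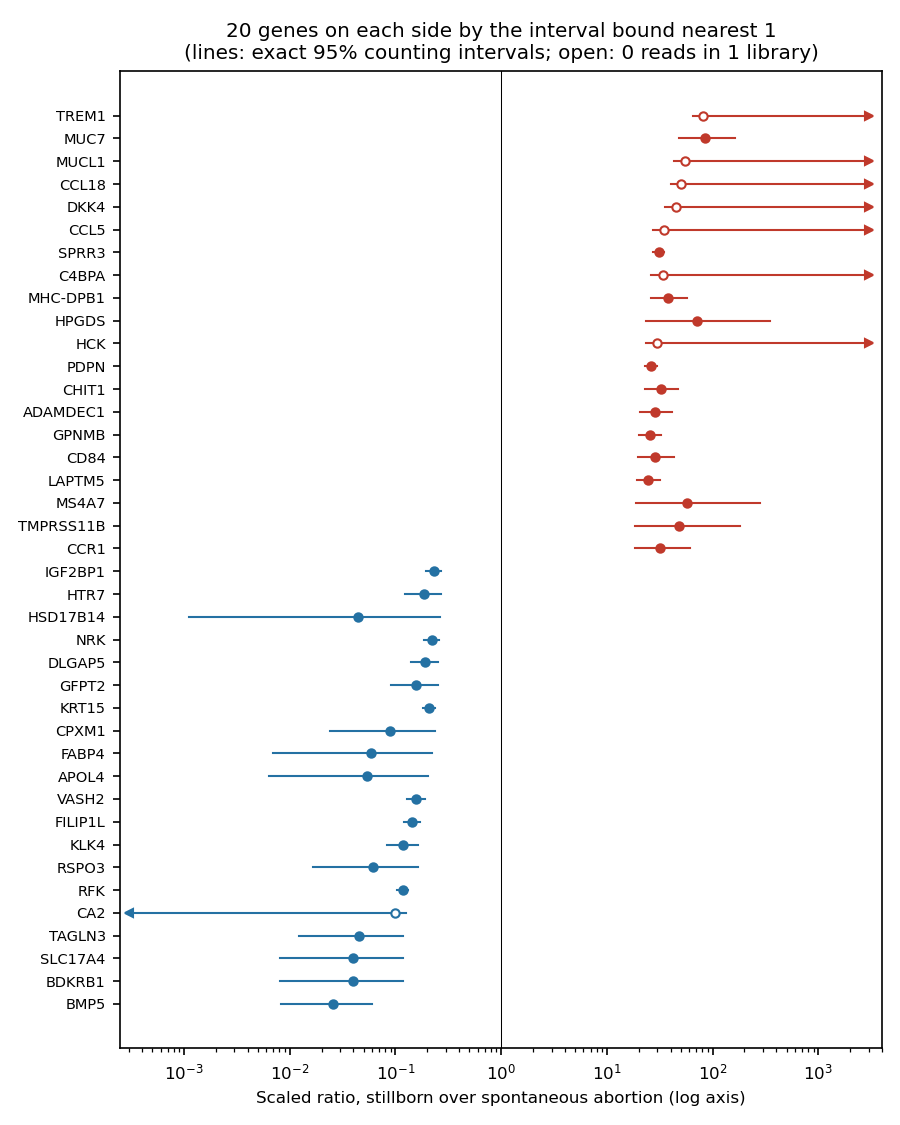
Scaled ratio of stillborn over spontaneous abortion (log axis) for the 20 genes with a symbol on each side whose interval bound nearest 1 lies farthest from 1; points are ratios, lines exact 95% counting intervals, and open points with arrows mark genes with 0 reads in 1 library, where 3 reads were taken for 0. The higher side runs from TREM1 and MUC7 to CCR1 and the lower side from IGF2BP1 to BMP5.

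Cornified envelope genes were higher in the stillborn fluid nearly throughout. Of 35 such genes in the files, 33 had reads in either library, of which 31 were above 0 on the log2 scale and 2 below, against 10446 above and 12066 below among all 22512 genes with reads. By the same call with no RPKM minimum, 9 were apart as higher and 0 as lower, against 388 (1.72%) and 229 (1.02%) of those 22512, the background for the calls given below over a list's genes with reads. The level rule admitted 20 of them, 6 through the stillborn library only, and their median log2 difference was 1.64, or 1.05 over the 33 with reads. SPRR3, a small proline-rich envelope protein of mouth and oesophagus, was at 131, 4.63 and 2.54, 30.8-fold higher (27.3 to 34.9). SPINK6, a kallikrein inhibitor of skin, was at 44.8, 4.04 and 0.470, 12.1-fold higher (10.6 to 13.8). Its relative SPINK7, found in oesophageal epithelium, was at 10.4, 0.521 and 0.0482. For SPINK6, SPINK7 and FLG2, the filaggrin-like protein of the granular layer at 1.77, 0.239 and 0.0184, the alive library was lower again than the spontaneous abortion library. KPRP, a proline-rich protein of keratinocytes, was at 3.91, 0.226 and 0.399, KLK13, a kallikrein protease, at 1.39, 0.164 and 0.0187, and SPRR2G at 2.51, 0.248 and 0.367. These 3 sat at low levels in both other libraries.

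The most abundant envelope genes differed less. EMP1, a membrane protein of squamous cells, was at 197, 175 and 61.9, and the plakin PPL, which links the envelope to keratin filaments, at 53.7, 58.3 and 51.0. MAL, a raft protein of apical transport, was at 42.5, 14.9 and 7.49, 3.11-fold higher (2.79 to 3.47) and under the 4-fold line. EMP1 and PPL thus lay near equality, while the 8 that were apart among those admitted ranged in ratio from 4.14 for KRTDAP to 30.8 for SPRR3. KRTDAP, a keratinocyte differentiation protein, was at 6.05, 1.59 and 1.10 and came to 3.81-fold when scaled to total reads, no longer apart.

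Secretory and barrier genes outside the envelope showed a few large differences among many small ones. Of 16 mucin genes, 13 were above 0 and 3 below, and 4 were apart as higher. MUC16, the large surface mucin of mucosal and amniotic epithelium and the most abundant of them, was at 52.9, 31.4 and 36.1, and MUC12, a membrane mucin of the gut, was at 2.31, 0.545 and 0.516. Among serpins, the squamous genes SERPINB5 (1.78, 0.228 and 0.765) and SERPINB7 (11.2, 2.95 and 1.84) were apart as higher, whereas SERPINB9, the abundant granzyme B inhibitor, was at 515, 762 and 907, lowest in the stillborn library. SERPINB7 was at 3.80-fold when scaled to total reads. Of the cystatins, which inhibit cysteine proteases, CSTA was at 226, 105 and 68.2 and CSTB at 211, 71.2 and 74.2, 2.34-fold and 3.22-fold higher, with 2312 and 3367 stillborn reads. The protease that they restrain, cathepsin B (CTSB), was higher in the same library, at 156, 34.0 and 37.6.

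Airway genes were on the stillborn side too, at low levels. Of 16 surfactant and airway genes, 13 were above 0 and 3 below, with 2 apart, the club cell secretoglobins SCGB3A2 (2.68, 0.131 and 0.796) and SCGB1A1 (3.84, 0.672 and 0.952). AGR2, a mucin-folding protein of secretory cells, was at 10.9, 3.72 and 2.76, 3.18-fold higher (2.90 to 3.50). AGR3, its neighbour in sequence and in ciliated cells, was at 13.1, 9.75 and 6.22. The surfactant proteins SFTPB, SFTPC and SFTPD stayed under RPKM 1 in every library. Of 39 antimicrobial genes, 26 had reads, 19 above 0 and 7 below, and 3 were apart as higher. RNASE6, a ribonuclease of monocytes and urinary epithelium, was at 6.82, 0.284 and 2.29, 26.1-fold higher (13.3 to 58.3), and lysozyme (LYZ) at 12.04, 4.18 and 4.42, 3.13-fold higher (2.55 to 3.85). DEFB1, the constitutive epithelial defensin, was at 689, 565 and 537 and the whey acidic protein WFDC2 at 1737, 2378 and 2545, while the inducible defensin DEFB4B was at 1.03, 0.275 and 0, 4.10-fold higher and 3.77-fold when scaled to total reads.

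Keratins did not follow the envelope. Of 49 keratin genes, 39 had reads, with 15 above 0 and 24 below, and the 21 that met the level rule had a median log2 difference of -0.08, close to that of all genes. Basal keratins split. KRT5 was at 49.1, 151 and 151, 2.83-fold lower in the stillborn library (2.76 to 2.90), and KRT15, a keratin of basal and stem-like cells, at 2.41, 12.5 and 16.3, 4.77-fold lower (4.20 to 5.44) and apart. KRT17, a keratin of basal and appendage cells listed as LOC103243446, was also lower, at 170, 349 and 511. KRT14, which pairs with KRT5 in basal cells, went the other way, at 31.7, 9.64 and 3.78, 3.58-fold higher (3.27 to 3.92). KRT6A, a keratin of mucosal and stressed epithelium, was at 588, 254 and 135, 2.51-fold higher (2.48 to 2.55), and KRT10, the suprabasal partner of keratin 1, at 29.6, 10.8 and 8.21. The simple epithelial KRT19 (316, 434 and 554) and KRT24 (1073, 1182 and 1437) were within 2-fold. For KRT5 and KRT15 the spontaneous abortion library was near the alive one, and the stillborn library alone was low. KRT17 was lowest in the stillborn library, higher in the spontaneous abortion library and highest in the alive one. KRT6A, KRT14 and KRT17, like the small proline-rich and histocompatibility genes, have near-identical relatives, and the sources used here do not say how the authors' counting divided shared reads.

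Cell adhesion genes were mixed as well. Of 57 junction genes, 52 had reads, 26 on each side of 0. CDH3, the P-cadherin of basal cells, was at 0.315, 1.57 and 1.75, 4.57-fold lower in the stillborn library (2.90 to 7.57). DSP, the desmosomal plakin desmoplakin, was at 18.9, 34.3 and 51.9, while DSG1, the desmoglein of upper layers, was at 22.9, 7.01 and 5.19 and PERP, a desmosomal membrane protein, at 97.5, 58.7 and 39.6. So the basal cadherin and DSP were lowest, and DSG1 and PERP highest, in the stillborn library. Of the transcription factors of surface epithelium, only PAX9, a factor of pharyngeal and oesophageal epithelium, was apart among those that met the level rule, at 1.67, 0.212 and 0.236. The widely used factors KLF4 (35.2, 38.9 and 27.4) and TFAP2A (18.7, 24.0 and 26.3) differed little.

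Macrophage transcripts were higher in the stillborn fluid across nearly the whole of their list. Of 31 monocyte and macrophage genes in the files, 30 had reads in either loss, of which 27 were above 0 and 3 below, and 20 were apart as higher and 0 as lower. The 17 admitted by level, 13 of them through the stillborn library only, had a median log2 difference of 2.64. Summed over all 31 genes, RPKM was 190.5, 22.75 and 30.5 in the same order of libraries. MARCO, a scavenger receptor of tissue macrophages, was at 0 in every library, and CD163, the haemoglobin scavenger receptor, was near 0 in every library, at 0.0256, 0.0138 and 0.0491.

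The highest of these genes were SPP1, FCER1G, GPNMB and CHIT1. Lipid-laden or phagocytic macrophages express SPP1, GPNMB and CHIT1, but SPP1 is also on the list of proteoglycans and matricellular genes, so it is no marker of macrophages alone. SPP1, the secreted phosphoprotein osteopontin, was at 71.1, 6.20 and 5.76, 12.5-fold higher (11.7 to 13.4). GPNMB, a glycoprotein of lysosome-rich macrophages, was at 21.3, 0.912 and 1.004, 25.3-fold higher (20.0 to 32.5), and CHIT1, the chitinase that activated macrophages secrete, was at 20.9, 0.699 and 0.325, 32.5-fold higher (23.1 to 47.1). In SPP1, GPNMB and CHIT1 the stillborn library stood far above both other libraries. It was also the highest, at lower levels, for TREM2, a lipid receptor (1.28, 0.138 and 0.0765), for the scavenger receptor MSR1 (1.75, 0.237 and 0.0757) and for the mannose receptor MRC1 (1.24, 0.148 and 0.210). FCER1G and TYROBP, adaptor proteins that carry the signal of many myeloid receptors, were at 20.8, 2.49 and 6.20 and at 4.39, 0.280 and 1.30. The complement subunit C1QB was at 4.35, 0.194 and 1.05, with 40 reads against 3, 24.4-fold higher (7.78 to 123). For CD14, the endotoxin co-receptor, the alive library was as high as the stillborn one, at 1.33, 0.165 and 1.44.

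**Figure D3:**
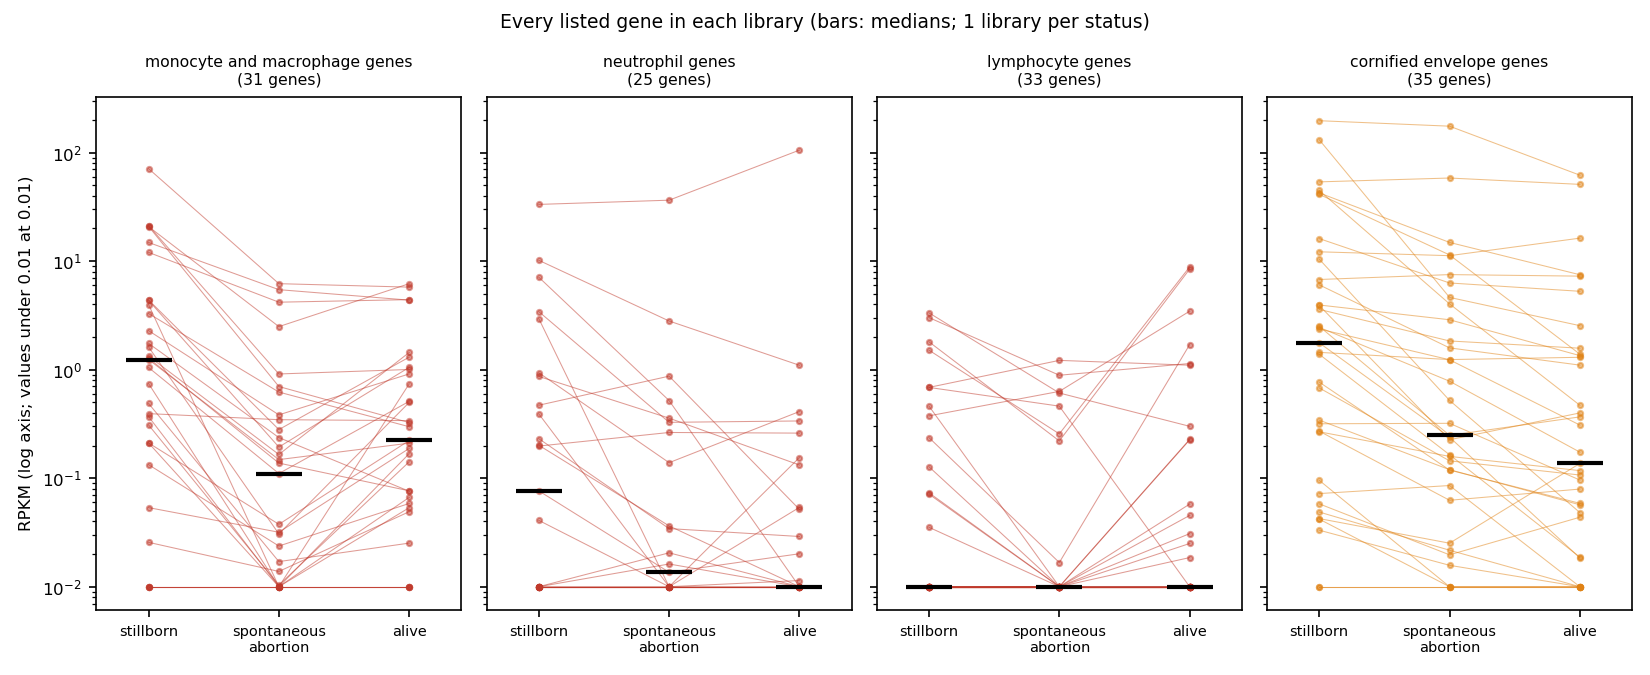
RPKM (log axis, values under 0.01 drawn at 0.01) of every gene on 4 lists in the 3 libraries, with lines joining a gene and bars at the list median. The macrophage and cornified envelope medians are highest in the stillborn library, and most neutrophil and lymphocyte genes lie at or near 0 in all 3.

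Genes listed as pan-leukocyte, some of which, such as BTK, not every leukocyte type expresses, followed the macrophage list. Of 43 such genes, 42 had reads, 38 above 0 and 4 below, with 18 apart as higher and 0 as lower. LAPTM5, a lysosomal membrane protein of blood cells, was at 23.7, 1.04 and 1.83, 24.7-fold higher (19.4 to 32.0), RAC2, the small GTPase of the phagocyte oxidase, at 26.7, 1.23 and 1.66, 23.5-fold higher (12.7 to 48.1), and SRGN, the granule proteoglycan serglycin, at 16.1, 0.871 and 2.13. CD53, a tetraspanin, was at 1.69, 0.0917 and 0.230, and BTK, a kinase of B cells and myeloid cells, at 1.25, 0.136 and 0. The most abundant gene on this list, ARHGDIB, a gene that epithelia also express, was at 344, 257 and 196 and within 2-fold.

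Neutrophil and lymphocyte genes were sparse in both losses. Of 25 neutrophil genes, 16 had reads, 11 above 0 and 5 below, and 3 were apart as higher. S100A8, a calgranulin of neutrophils, monocytes and stressed keratinocytes, was at 7.11, 0.519 and 0, and the gelatinase MMP9 at 3.43, 0.327 and 0.337. S100A9, the partner of S100A8, was at 10.2, 2.81 and 1.10, 3.94-fold higher (2.82 to 5.57). Lactotransferrin (LTF), an iron-binding protein that glands also secrete, was at 33.3, 36.4 and 105, level between the losses. The granule genes MPO, ELANE, AZU1 and PRTN3 were at 0 in every library. Of 33 lymphocyte genes, 13 had reads, 11 above 0 and 2 below. IL7R, the interleukin 7 receptor, was at 3.34, 0.609 and 0.301, 5.96-fold higher (4.65 to 7.70), and GZMB, the cytotoxic protease granzyme B, at 1.81, 0.220 and 8.44, highest in the alive library. CD3D, CD3E, CD2 and the B cell gene MS4A1 were at 0 in every library.

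Lysosomal genes were shifted by smaller amounts across most of the list. Of 48 cathepsin, hydrolase, membrane and proton pump genes, 47 had reads, 37 above 0 and 10 below, with a median log2 difference of 0.48 over the 36 that met the level rule, 32 of them in both libraries. Cathepsin B (CTSB) was 4.99-fold higher (4.75 to 5.25), with 5577 reads against 2047, and CTSC, the dipeptidyl peptidase that activates granule proteases, was at 2.36, 0.151 and 1.15. ATP6V0D2, the proton pump subunit of osteoclasts and macrophages, was at 1.82, 0.0360 and 0.0356, with 90 reads against 3, 55.0-fold higher (18.2 to 272). The widely expressed pump subunits ATP6V0E1 (110, 89.1 and 101), ATP6V1G1 (88.5, 76.4 and 80.0) and ATP6V0C (76.0, 63.0 and 64.0) differed little more or less than the list. After scaling they were 1.34-fold, 1.26-fold and 1.31-fold higher, beside a list median of 1.39-fold. Another pump subunit, ATP6V0B, was also apart, at 1.08, 0.259 and 0.586, 4.53-fold higher (2.52 to 8.48).

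Genes of lipid uptake and handling showed the same direction in part. LPL, the lipase that frees fatty acids from lipoproteins, was at 37.0, 3.02 and 1.26, 13.3-fold higher (11.9 to 15.0), and LIPA, the lysosomal acid lipase, at 8.94, 2.39 and 1.49, 4.06-fold higher and 3.73-fold when scaled to total reads. APOE, the apolipoprotein that macrophages secrete, was at 1.05, 0.110 and 0.510. NPC2, which carries cholesterol out of lysosomes and is abundant in secretions, was at 942, 477 and 603, 2.15-fold higher (2.07 to 2.22). FABP5, a fatty acid binding protein of skin and macrophages, was at 71.6, 24.4 and 21.0, 3.19-fold higher (2.86 to 3.55). FABP4, the fatty acid binding protein of adipocytes and of some macrophages and endothelium, went the opposite way, at 0.146, 2.68 and 0.256, with 2 reads against 62, 16.9-fold lower (4.49 to 143). The hepatic and intestinal transcripts APOA2 (146, 208 and 189) and TTR (24.7, 24.3 and 49.2) were within 2-fold, and FABP1 was at 80.2, 31.8 and 48.6. FTH1, the heavy chain of the iron store ferritin, was at 103, 35.0 and 42.7, 3.21-fold higher (2.98 to 3.45), while the light chain FTL was level at 4600, 4247 and 3198.

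Chemokine genes were few in both losses. Of the 10 of 58 that met the level rule, 3 did so in both libraries and 7 in the stillborn library only. Of 58 chemokines and receptors, 41 had reads, 27 above 0 and 14 below, and 8 were apart as higher and 2 as lower. CCL18, a chemokine of alternatively activated macrophages, was at 3.98, 0 and 0.168 with 83 stillborn reads, at least 40.3-fold higher by the interval bound and 50.7-fold with 3 reads for 0, and CCL5, which draws T cells and monocytes, at 1.61, 0 and 0.0248, at least 27.4-fold higher and 34.8-fold in the same terms. CCR1, a receptor on monocytes and neutrophils, was at 3.78, 0.129 and 0.0147, 31.9-fold higher (18.3 to 60.8), and CX3CR1, the fractalkine receptor, at 1.66, 0.130 and 0.253. All 4 were high in the stillborn library alone. CCR2, the receptor of classical monocytes, was instead at 1.57, 3.30 and 1.01, 1.94-fold lower in the stillborn library (1.34 to 2.86).

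Complement and antigen presentation genes were mostly above 0, with a few far apart. Of 36 complement genes, 31 had reads, 20 above 0 and 11 below, with 7 apart as higher. The anaphylatoxin receptor C5AR1 was at 1.65, 0.127 and 0.324, and the central component C3 at 2.16, 0.337 and 2.29. C4BPA, a soluble inhibitor, was at 1.29, 0 and 0.0411, at least 26.4-fold higher by the interval bound and 33.6-fold with 3 reads for 0. The regulators that all cells carry, CD59 (18.3, 17.8 and 15.7) and CD46 (3.59, 3.32 and 1.95), were near equality. Of 25 antigen presentation genes, 23 had reads, 18 above 0 and 5 below, and 5 were apart as higher. The class II gene MHC-DPB1, listed as LOC103221682, was at 30.7, 0.888 and 30.1, 37.6-fold higher (25.9 to 56.6) and as high in the alive library as in the stillborn. CD74, the invariant chain of class II molecules, was at 2.29, 0.383 and 0.913, and IFI30, the thiol reductase of antigen processing, at 32.4, 3.43 and 3.41. B2M, the light chain of class I molecules, was at 37.1, 16.2 and 14.5, 2.49-fold higher (2.31 to 2.68). The MHC-DPB1 value is among those that reads shared with relatives could alter.

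Cytokine and interferon response genes differed less than the myeloid markers. Of 44 genes of the interleukin 1, interleukin 6 and NF-kB responses, 39 had reads, 26 above 0 and 13 below, with a median log2 difference of 0.45 over the 21 that met the level rule, and 1 was apart as higher and 1 as lower. The alarmin IL33 was at 1.84, 0.467 and 0.921, 4.30-fold higher (3.30 to 5.65), and at 3.95-fold when scaled to total reads. SOD2, the mitochondrial superoxide dismutase, was at 75.5, 36.6 and 38.8, IL1RN, the interleukin 1 receptor antagonist, at 42.1, 22.1 and 22.4, and the feedback inhibitor NFKBIA at 17.2, 17.2 and 18.3. The first 2 of these were near 2-fold higher in the stillborn library and NFKBIA was level. Of 44 interferon-stimulated genes, 43 had reads, with 22 above 0 and 21 below and none apart. The 32 that met the level rule had a median of 0.06, which fell below 0 when scaled to total reads. IFI6, a mitochondrial survival protein, was at 86.5, 44.9 and 85.1, and XAF1, a cell death factor, at 27.4, 13.6 and 6.63.

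Transcripts for DNA replication and for mitosis were lower in the stillborn fluid, with few exceptions. Of 46 replication genes, 42 were below 0 and 4 above, with 3 apart as lower, and of 49 mitosis genes 48 were below 0 and 1 above, with 2 apart as lower. Median log2 differences were -0.66 over the 41 replication genes and -0.92 over the 41 mitosis genes that met the level rule, against -0.02 over all genes. Of these, 8 replication and 13 mitosis genes met the rule through the spontaneous abortion library only. Over the 46 and 49 genes with reads the medians were -0.75 and -0.97, against -0.04 over all genes with reads. The shift was broad and modest, so few genes reached 4-fold. With log2(RPKM + 1) in place of log2(RPKM + 0.1), the mitosis median was -0.63.

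MCM5, a subunit of the helicase that opens replication origins, was at 0.663, 3.67 and 5.16, 5.09-fold lower (3.51 to 7.63). RRM2, the subunit that makes ribonucleotide reductase rate-limiting in S phase, was at 19.1, 67.8 and 79.9, 3.27-fold lower (2.98 to 3.60), and the sliding clamp PCNA at 15.4, 21.5 and 24.7. DLGAP5, a spindle assembly protein outside both lists, was at 1.19, 6.76 and 8.43, 5.23-fold lower (3.94 to 7.08). The cyclins CCNA2 and CCNB2, which drive entry into mitosis, were at 11.0, 21.6 and 25.3 and at 10.3, 23.9 and 41.2. In each of these 6 genes the stillborn library was lowest and the alive library highest. ANLN, a scaffold of the contractile ring, had the same order at 22.3, 24.4 and 33.0 but was level between the losses after scaling, 1.01-fold lower (0.984 to 1.04), and the clamp loader subunit RFC5 was at 19.8, 21.0 and 19.8.

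**Figure D4:**
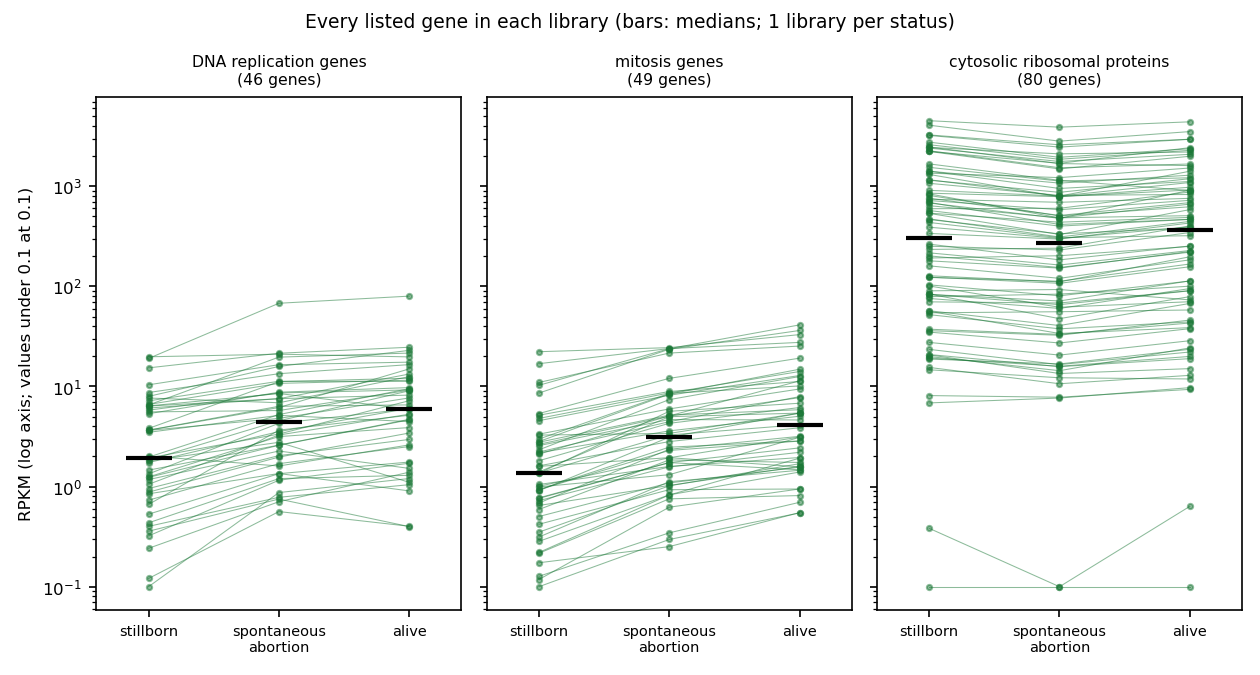
RPKM (log axis, values under 0.1 drawn at 0.1) of every gene on the DNA replication, mitosis and cytosolic ribosomal protein lists in the 3 libraries, with lines joining a gene and bars at the list median. Replication and mitosis medians are lowest in the stillborn library, and ribosomal protein genes shift little.

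Ribosomal protein genes moved as a block by a small amount. Of 80 genes, 79 had reads, 78 above 0 and 1 below, with a median log2 difference of 0.52, or 0.40 when scaled to total reads, and none apart. RPS6, a phosphorylated protein of the small subunit, was at 4075, 2824 and 3519, and RPS20 at 1313, 787 and 978, 1.81-fold higher (1.77 to 1.86). This shift went with the length and the level of the genes. Over all genes the median log2 difference was 0.32 for the 460 genes whose recovered length was under 500 bases, 0.26 for the 1186 of 500 to 1000, 0.05 for the 1911 of 1000 to 2000, -0.03 for the 2437 of 2000 to 4000 and -0.10 for the 4757 of at least 4000. Recovered lengths are those that turn RPKM into whole reads and are lower bounds. Among genes with RPKM of at least 100 and a length under 1000 bases, the 39 ribosomal protein genes had a median of 0.52 and the 212 others also one of 0.52, with 91% of these others above 0. Short abundant genes outside the ribosomal protein list were therefore shifted by as much as the ribosomal protein genes of that length and level. These others were not sorted by kind, so any unnamed copies of ribosomal protein genes among them were not set apart.

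Replication and mitosis genes were nearly all of low level and at least 1000 bases long. Among genes under RPKM 100 with a length of at least 1000 bases, the 81 replication and mitosis genes had a median log2 difference of -0.86, with 5 above 0 and 76 below, and the 8791 others one of -0.06, with 44.9% above 0. All of these met the level rule, some replication and mitosis genes through the spontaneous abortion library only, as given above. Translation factors (median 0.09), mitochondrial ribosomal proteins (-0.005), respiratory chain subunits (0.06) and proteasome subunits (-0.05) lay near 0 with none apart, and the first and the third of these medians fell below 0 when scaled to total reads. Splicing factors were lower as a list, with 8 of 55 above 0 and 47 below and none apart. Their median was -0.38 over the 51 that met the level rule. SRSF3, a splicing regulator, was at 93.3, 129 and 115, while SRSF9 was at 155, 154 and 158.

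Fetal growth genes were abundant in both losses and differed at the margins. IGF2, the fetal insulin-like growth factor, was at 34904, 26073 and 18289, and the imprinted transcript H19, listed as LOC103241849, at 38851, 35812 and 30528, the highest levels of all genes in the pair. The difference was 1.46-fold for IGF2 and 1.18-fold for H19. DLK1, an imprinted Notch family ligand of fetal tissues, was at 0.539, 2.49 and 12.5, 4.25-fold lower (2.43 to 8.03), so the losses differed from each other and both lay below the alive library. Of 22 imprinted growth genes, 7 were above 0 and 15 below, and 2 were apart as lower. IGF2BP1, an RNA-binding protein of embryonic cells, was at 1.06, 5.004 and 6.14, 4.34-fold lower (3.67 to 5.15), whereas its paralogue IGF2BP3 was level at 54.3, 59.6 and 62.9. IGFBP1, the growth factor binding protein of decidua and fetal liver, was at 11.0, 1.01 and 30.7, 11.9-fold higher (9.37 to 15.2) in the stillborn library and highest in the alive one.

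Signalling ligands and their inhibitors gave some of the widest single differences in lists that were otherwise balanced. BMP5, a bone morphogenetic protein ligand, was at 0.0514, 2.18 and 1.41, with 5 reads against 357, 39.0-fold lower (16.5 to 121), while 27 of the 50 BMP and TGF-beta genes with reads were above 0 and 23 below. The other 27 genes of that list that met the level rule were within 2-fold, among them the signal mediator SMAD5 at 27.2, 40.3 and 43.2 and the follistatin-like FSTL1 at 110, 81.6 and 51.5. Of the WNT genes, 28 were above 0 and 24 below. RSPO3, a secreted enhancer of WNT signalling, was at 0.0951, 1.68 and 0.209, 16.2-fold lower (6.18 to 60.6), and DKK4, a secreted WNT inhibitor, was at 1.10, 0 and 0.0133, at least 35.4-fold higher by the interval bound and 44.6-fold with 3 reads for 0. The enhancer was thus lower and the inhibitor higher in the stillborn library, while CTNNB1, the beta-catenin effector, was at 6.01, 11.1 and 16.1 and the ligand WNT5A at 6.05, 6.53 and 3.21. HPGDS, the prostaglandin D synthase of haematopoietic cells, was at 7.38, 0.113 and 2.62, with 116 reads against 3, 70.9-fold higher (23.7 to 349). HPGD, the enzyme that inactivates prostaglandins, was near equality at 7.43, 8.62 and 11.1. The water channel AQP4 was at 1.66, 0.178 and 0.0282, 10.1-fold higher (6.75 to 15.8).

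On the low side no list held many of the genes apart. RFK, the riboflavin kinase that makes flavin cofactors, was the deepest of them, at 5.57, 51.8 and 34.9 and with 267 reads against 4189, 8.56-fold lower (7.56 to 9.73). KLK4, a kallikrein protease of enamel and prostate, was at 1.18, 10.8 and 9.95, 8.47-fold lower (6.10 to 12.1), and VASH2, a vasohibin of trophoblast and other growing tissue, at 1.52, 10.6 and 9.62, 6.39-fold lower (5.26 to 7.84). FILIP1L, a regulator of cell migration, was at 0.650, 4.89 and 8.69. In these 4 genes the stillborn library alone was low. BDKRB1, the inducible bradykinin receptor, had 3 reads against 139, at 0.0686, 1.88 and 3.35, and the transporter gene SLC17A4 had the same reads, at 0.0514, 1.41 and 0.451. TAGLN3, an actin-binding protein of neurons, was at 0.155, 3.73 and 1.63. CA2, a carbonic anhydrase, was at 0, 1.62 and 0.0871, with 0 reads against 55, at least 7.87-fold lower by the interval bound and 10.004-fold with 3 reads for 0, and there the spontaneous abortion library alone was high. None of the genes with RPKM of at least 100 was apart as lower. Of these, CDR1 was at 134, 378 and 253, 2.599-fold lower (2.51 to 2.69), the aldose reductase AKR1B1 at 94.1, 213 and 307, 2.08-fold lower (1.997 to 2.172), and the importin IPO5 at 205, 415 and 532, 1.86-fold lower (1.82 to 1.91).

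**Figure D5:**
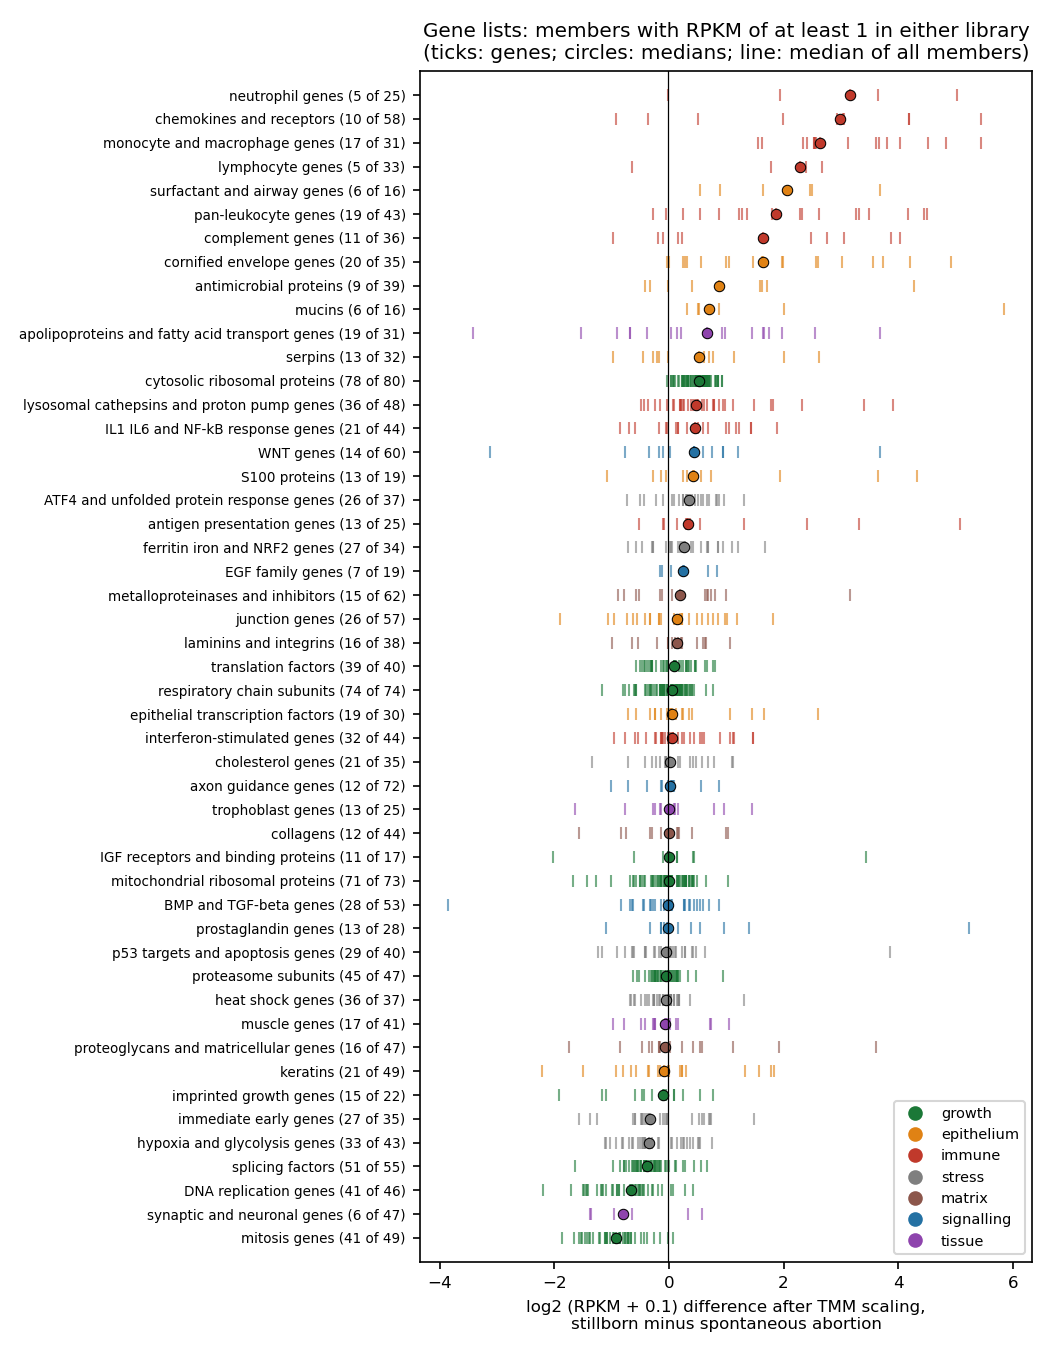
Log2 (RPKM + 0.1) difference after TMM scaling, stillborn minus spontaneous abortion, of the genes on each list that met the level rule (ticks; counts of those on the list in the files stand beside each name), with list medians (circles, coloured by theme) and the median of all genes (vertical line). Most immune lists and the cornified list lie to the right, with the interferon-stimulated list near the line. Replication, mitosis, splicing and synaptic lists lie to the left, and most stress, matrix and tissue lists lie closer to the line. Of the 6 synaptic genes drawn, 4 met the rule through the spontaneous abortion library only.

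Stress lists differed in direction, with medians from -0.34 to 0.35. In this paragraph medians are over the genes that met the level rule, and counts above and below 0 are over those with reads. Heat shock genes had a median log2 difference of -0.05, with 16 of 37 above 0, and p53 and apoptosis genes had one of -0.05. Genes of hypoxia and glycolysis had a median of -0.34 with 18 of 43 above 0, LDHA, the lactate dehydrogenase of anaerobic glycolysis, being at 435, 532 and 377 and the mitophagy receptor BNIP3 at 123, 152 and 92.5. Immediate early genes had a median of -0.34 with 10 above 0 and 23 below, the transcription factors FOS and JUN being at 57.0, 85.5 and 54.2 and at 43.8, 73.1 and 60.4. The unfolded protein response list lay on the other side, with 28 of 37 above 0 and a median of 0.35. HSP90B1, the chaperone GRP94 of the endoplasmic reticulum, was at 70.7, 42.0 and 35.9, and the transcription factor ATF4 at 481, 380 and 405. Ferritin and NRF2 target genes had 24 of 33 above 0 and a median of 0.27. Among the genes of these lists that met the level rule, BCL2A1, a survival gene of leukocytes, was apart, at 9.39, 0.608 and 0, with 55 reads against 6, 16.8-fold higher (7.24 to 47.7).

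Matrix genes and markers of most other tissues were near equality or close to absent. Of the 38 collagen genes with reads, 16 were above 0 and 22 below, and the 12 that met the level rule had a median of 0.0035. COL1A2 was at 39.5, 32.4 and 17.6 and COL3A1 at 21.0, 28.6 and 21.3. Lumican (LUM), a proteoglycan of connective tissue, was at 222, 239 and 158. Of the trophoblast list, 9 of 21 genes with reads were above 0, with GATA3 at 46.3, 61.1 and 48.8 and VGLL1 at 80.2, 86.7 and 121. Of the synaptic and neuronal genes, 6 met the level rule, 4 of them through the spontaneous abortion library only. These 6 had a median of -0.80, with 2 above 0 and 4 below and none apart. The 2 that met the rule in both libraries, SYN1 and VAMP2, were those above 0, so the one-sided entry weighs on this median. Over the 46 with reads the median was -0.06, with 16 above 0 and 30 below. Urothelial UPK1B was at 26.5, 20.3 and 13.2, and 3 of 23 kidney and bladder genes met the level rule. A single endothelial gene, ENG, met it, at 1.48, 0.539 and 0.440, and CDH5, the endothelial cadherin, was at 0 throughout. HBB, the beta globin gene listed as LOC103247901, was at 0.162, 1.82 and 0.213, with 2 reads against 38, 10.4-fold lower in the stillborn library (2.68 to 88.7), while the erythroid genes ALAS2, KLF1 and GATA1 were at 0.

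By theme, immune and epithelial lists held the highest shares of genes apart as higher. Of the genes that met the level rule, 46 of 166 on immune lists (27.7%) and 19 of 133 on epithelial lists (14.3%) were apart as higher, against 1.96% of all, and 0 and 2 were apart as lower. The lists were chosen with earlier results of these data known, and many of these genes met the rule only through the stillborn library, so these shares describe the lists and are no independent support. Growth lists had 1 gene apart as higher (0.215%) and 3 as lower (0.644%) among 466, and stress lists 1 (0.505%) and 0 among 198. Matrix lists had 2 (3.39%) and 0 among 59. Both of these matrix genes, SPP1 and MMP9, are also on immune lists, since a gene counts under each theme that lists it. Signalling lists had 3 (3.75%) and 2 (2.5%) among 80 and tissue lists 3 (4.69%) and 2 (3.12%) among 64. These shares, like the matrix share of higher genes, also lie above those of all genes. The 9629 genes on no list held 140 of the 211 genes apart as higher and 58 of the 67 apart as lower. Of all genes apart, 46 higher and 30 lower ones are known in the files by LOC number alone.

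The alive library lay nearer to the spontaneous abortion than to the stillborn library for 177 of the 211 genes apart as higher (83.9%) and for 46 of the 67 apart as lower (68.7%), against 67.7% of all 10773 genes. Among the 34 higher genes for which it lay nearer to the stillborn library were MHC-DPB1, C3, CD14, GZMB and IGFBP1, given above. For this smaller group the spontaneous abortion library was the low one of the 3. Among the 21 lower genes with the alive library nearer to the stillborn were CA2, FABP4, RSPO3 and HBB, for which the spontaneous abortion library was the high one.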

How the data were processed

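The 3 deposited files hold RPKM values, 1 per gene and library, made by the authors. The tools bcl2fastq 2.17, STAR and HTSeq appear in the submitters' processing notes, with no role stated. Not given in the sources used here: versions of the latter 2, genome build, annotation, strand setting and the step that made RPKM. Extraction from supernatant used a circulating nucleic acid kit and DNase, per the labels' protocols, and 100 ng was amplified by the Ovation SPIA chemistry, with no molecular identifiers named, so reads are not taken as independent molecules.

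Library totals and reads per gene were solved from the whole-number steps of the RPKM values; 99.459% of the 23276 genes above 0 came out whole to within the last printed digit, and 22 of the 10773 genes compared did not. Reads are lower bounds and sum to 95.044% to 95.877% of the totals. TMM factors were 0.93733 (stillborn), 1.01879 (spontaneous abortion) and 1.04718 (alive). Ratios of scaled reads carry exact Clopper-Pearson 95% intervals. Where a library had 0 reads, 3 were taken. With 1 library per status no test was made. Calls need at least 4-fold, an interval that excludes 1 and at least 30 reads. List medians use log2(RPKM + 0.1) over the genes that met the level rule unless stated. A list's counts above and below 0 are over its genes with reads unless stated. Python 3.11.15, numpy 2.4.6, scipy 1.17.1, pandas 2.3.3 and matplotlib 3.10.9 were used, and the scripts were tested on simulated data.

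The members and lists were chosen with earlier results of these data known. Named genes are the 20 on each side with the interval bound farthest from 1, each list's genes apart and its 4 with the highest mean RPKM, the 10 most abundant genes, extremes and near-equal genes above RPKM 100, the extremes of each level band, and the genes at the edge of the level rule. KRT14, KRT10, DSG1, CD163, the surfactant proteins and the markers given at 0 were named after their values were seen. Gene names are those of the files; for 17250 LOC names, RefSeq's table for mChlSab1.0.hap1 held 6491 by gene ID and gave 825 a symbol. Alternatives were scaling, thinning, the level minimum, the fold, the pseudocount and the mean.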

Additional observations from a re-analysis of the deposited data

How the results depend on the processing

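The calls were repeated scaled to total reads, scaled to median-of-ratios factors, and with the spontaneous abortion library thinned to the smaller stillborn total. In that order, 195, 213 and 209 genes were apart as higher and 74, 64 and 48 as lower. Of these, 195, 211 and 200 of the higher and 67, 64 and 47 of the lower ones were the same genes as with TMM. The level minimum and the fold moved the counts most. RPKM of at least 5 in either library left 59 higher and 12 lower, no minimum gave 388 and 229, and RPKM of at least 1 in both libraries, an alternative chosen after seeing the data, left 35 and 9. At 2-fold the counts were 616 and 480. Scaled to total reads, the median log2 difference was -0.14 over all genes, 0.40 for cytosolic ribosomal proteins, -0.12 for mitochondrial ribosomal proteins and -0.49 for splicing factors. With median-of-ratios factors it was -0.0036 over all genes. With log2(RPKM + 1) it was -0.63 for mitosis genes and 1.44 for monocyte and macrophage genes. Over all genes the median turned from -0.02 to 0.011 at RPKM of at least 5, and the mean was 0.040. Of 310 named genes, 5 were no longer at 4-fold when scaled to total reads (KRTDAP, SERPINB7, DEFB4B, IL33 and LIPA). These 5 stayed higher in the stillborn library. Named genes with a TMM ratio just above 1, such as VIM at 1.04, fell below 1 by that scaling.

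No paired analysis was possible because each status has 1 library, and leaving out a library leaves no comparison. The stillborn library is the shallower, so a gene low in it rests on fewer reads; 14766 genes had at least 10 reads in it and 15709 in the spontaneous abortion library. Outcome, pregnancy, gestational age and handling cannot be told apart.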
